A study of Homo sapiens with 14 samples.

Results

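C-to-U changes were called in RNA of cells that carried no base editor at 289 sites, which is 2.72% of the 10609 distinct C-to-U sites of the series. The sites were chosen by their calls: a site was taken if C-to-U was called in at least 1 of 11 libraries, namely those given the prime editor PE3, the nuclease Cas9 or the fluorescent protein EGFP, and those that were not transfected, whether or not the cytosine base editor hA3A-BE3 also had it. These calls chose the sites, so recurrence and the levels of the classes are described without a test. Groups were tested only for differences in level, which the choice did not use, at sites that all or most libraries called. The other 10320 C-to-U sites were called in hA3A-BE3 libraries and in none of the 11.

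The libraries were made from 293FT cells, a line derived from human embryonic kidney cells that carries the SV40 large T antigen, and the titles of all 14 carry the label hRNF2. Cells in the brightest 15% by fluorescence were sorted 40 h after transfection, per the labels, which give the same text for cells that were not transfected. The groups were hA3A-BE3 (3 libraries), PE3 (2 libraries, replicates 2 and 3), Cas9 (3), EGFP (3) and non-transfection (3). Ribosomal RNA was depleted, the libraries were stranded, and reads were paired and 150 bases long; the labels do not say whether replicates were separate cultures, so a p-value reflects spread among these libraries that could be technical only.

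Deamination of cytidine gives uridine. In mammals the enzyme APOBEC1 does this to a few messenger RNAs in the intestine, APOBEC3A can do it in RNA of blood cells, and hA3A-BE3 joins human APOBEC3A to a Cas9 nickase; APOBEC3A acts mostly on a C that follows a U. Adenosine to inosine editing by ADAR enzymes (A-to-I, read as A-to-G) is the common form of editing in human RNA and is concentrated in inverted repeats. PE3 carries a reverse transcriptase and no deaminase, and Cas9 and EGFP carry none either.

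The site lists give called sites only, each with at least 2 mutated reads and a level of at least 5.02%, where the level is the percentage of covering reads with the changed base. A missing site may be unchanged, thinly covered or below those limits, and was never counted as a level of 0. No DNA sequence of these cells was analysed here, so a base that differs from the reference in the genome and one changed in the RNA cannot be told apart. Errors of sequencing, reverse transcription or alignment were not tested for either. The word edited therefore marks the called change only. The 14 libraries had from 3.26 Gb of mapped bases (PE3 replicate 2) to 10.6 Gb (Cas9 replicate 3), as read from a constant ratio in the lists. The lists also hold a depth signal apart from the covering reads, and its lowest value per Gb was 3.01 to 3.13 over the 14 libraries. Calls thus also had a floor of depth that grew with library size. Its part in recurrence and in missing calls was not tested. The targets of C-to-U editing on a list of reported genes (APOB, NF1, EIF4G2, SDHB, DDOST and others) held 0 of the 289 sites, and APOBEC and ADAR genes held 0; of the sites of other changes these lists held 0.0493% and 0.00987%.

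The 21 bases around the edited C are shown first for part of the 17 sites with known sequence called in 6 or more libraries. All 6 of the 17 sites with G after the C are among those shown, and others such as ZNF584, ZBTB40, H2AFV and MT-RNR2 are not. G after the C is thus more frequent in the windows shown than among the 17. The windows were read from GENCODE 29 transcripts (GRCh38), run 5′ to 3′ in the sense of the RNA with T for U, and the capital marks the edited C. The site in G3BP1 (chr5:151805140, plus strand, 3′ UTR) and that in DCBLD2 (chr3:98822272, minus strand, coding) had a U before the C. The others shown lay in DAD1 (chr14:22589178, minus, 5′ UTR), RBM27 (chr5:146233649, plus, coding), MAP3K21 (chr1:233383252, plus, 3′ UTR), ADCY3 (chr2:24918565, minus, coding), OTULIN (chr5:14694208, plus, 3′ UTR), CKAP4 (chr12:106239807, minus, coding), CC2D1A (chr19:13927978, plus, coding) and UBXN11 (chr1:26282361, minus, coding).
G3BP1: attctggtatCtaatcagatt
DCBLD2: gtaaaggtatCccctattatg
DAD1: gggcgcggacCggagtacctt
RBM27: caggcccaggCccgggcccag
MAP3K21: aaaagtctgaCgactggaata
ADCY3: tgctgccctaCgtgctgtggc
OTULIN: gtggctgagcCgcgtatgccc
CKAP4: aggaggcggcCgacacggagc
CC2D1A: cagttggagaCgacgacagag
UBXN11: cggtcccggcCccagtcccgg

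Part of the sequences showed another feature, a run of at least 4 U directly after the C. It was present in MUS81 (chr11:65864731, plus strand, coding), RGS2 (chr1:192811002, plus, coding) and SMAD2 (chr18:47841094, minus, 3′ UTR); the MUS81 site was called in 2 libraries and the others in 1.
MUS81: tcattgatggCttttttgtga
RGS2: gcattcagggCttttttaaag
SMAD2: ttccaagcctCttttttccat

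Most of the sites were seen once. Of the 289 sites, 239 (82.7%, exact 95% binomial interval 77.8 to 86.9%) were called in 1 of the 11 libraries, 27 (9.34%) in 2 to 5 and 23 (7.96%, 5.11 to 11.7%) in 6 or more. Sites of G3BP1 and ZNF544 were called in all 11, and 6 sites in 10. Intervals here and elsewhere cover counting error only. Among other changes in the same 11 libraries, sites called once made up 54.3% of 8573 A-to-I sites, 80.1% of 447 G-to-A sites, 78.6% of 611 U-to-C sites and 81.6% of 501 transversion sites. The share for C-to-U was nearer to the last 3 than to that of A-to-I; the shares were not tested against each other.

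Presence in hA3A-BE3 libraries, which the choice of sites did not use, was more frequent at sites that more libraries called. At least 1 of the 3 hA3A-BE3 libraries called 33 of the 289 sites (11.4%, 7.99 to 15.7%). Among sites called in 6 or more of the 11 libraries this was 19 of 23 (82.6%, 61.2 to 95.05%), and 14 of these stood in all 3 hA3A-BE3 libraries. It was 9 of 27 (33.3%) for sites called in 2 to 5 libraries, and 5 of 239 (2.09%, 0.683 to 4.81%) for those called in 1, namely sites in ZNF501, STK35, PATJ, GART and LINGO1. For A-to-I sites the same shares were 93.3% of 1129 sites called in 6 or more libraries and 12.6% of 4652 called once. Singly called G-to-A sites recurred in hA3A-BE3 at 6.42% (4.12 to 9.48%), U-to-C sites at 8.33% (6.02 to 11.2%) and transversions at 5.13% (3.21 to 7.74%). The share at singly called C-to-U sites was the lowest of these, but it rests on 5 sites. Its interval overlaps those of G-to-A and transversions.

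Most of the edited bases did not follow a U. Of 224 exonic sites with known sequence, U stood before the C at 46 (20.5%, 15.4 to 26.4%), A at 25%, and C and G at 27.2% each. Other changes in the same 11 libraries were mostly at bases other than C. Their exonic shares with U before were 14.3% (G-to-A), 17.8% (U-to-C), 19.5% (transversions) and 30.9% (A-to-I). In contrast, 9707 of 10165 exonic C-to-U sites called in hA3A-BE3 alone (95.5%) had U before the C. Among the 46 sites with U before the C, 4 (8.70%, 2.42 to 20.8%) were also called in hA3A-BE3, against 17 of 178 (9.55%, 5.66 to 14.9%) with another base, intervals that overlap. The sites with U before the C that more than 1 library called were in G3BP1, DCBLD2, H2AFV and ZNF254. The base after the C was G at 6 of 17 sites called in 6 or more libraries (35.3%, 14.2 to 61.7%) and at 27 of 201 called once (13.4%, 9.04 to 18.9%), intervals that overlap. The 6 sites were those in DAD1, MAP3K21, ADCY3, OTULIN, CKAP4 and CC2D1A.

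The run of U after the C, searched as CUUUU on the strand of the RNA and directly at the site, was found at 15 of 236 sites with known sequence (6.36%, 3.601 to 10.3%). It stood at 20 of 10229 C-to-U sites called in hA3A-BE3 alone (0.196%, 0.119 to 0.302%). A U directly after the C, which the run needs, was present at 29.7% of the 236 sites and at 12.3% of the 10229. The part of that base in the difference was not tested. Of the 15 sites, 14 were called in 1 library and that of MUS81, an endonuclease of DNA repair, in 2. The 14 were 6.97% (3.86 to 11.4%) of the 201 sites called once that had known sequence. None of the 17 sites called in 6 or more libraries had the run (0 to 19.5%), and these intervals overlap. Other genes with such a site included TRIM33, STK35, DESI1, NEK7, ACSL4, ZDHHC2, UBR1, GYG1, ITGAE, GPATCH2L and ZNF501, the last also called in hA3A-BE3 as was STK35. This motif was searched after the sequences had been seen, and a match describes the sequence only.

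By GENCODE 29 the 289 sites lay in 249 genes on 24 chromosomes, mitochondrial DNA included. Coding sequence held 141 of them (48.8%, 42.9 to 54.7%), 3′ UTRs 65 (22.5%, 17.8 to 27.7%), introns 54 (18.7%, 14.4 to 23.7%), 5′ UTRs and non-coding exons 9 each, and 11 lay outside genes. C-to-U sites called in hA3A-BE3 alone were in coding sequence at 70.0% and in introns at 0.988%. A-to-I sites of the same 11 libraries lay in 3′ UTRs at 52.4%, in introns at 34.0% and in coding sequence at 1.85%, whereas G-to-A sites (48.1% coding) and transversions (47.9% coding) had a share of coding sequence close to that of the C-to-U sites. By recurrence, coding sequence held 124 of 239 sites called once (51.9%, 45.4 to 58.4%) and 8 of 23 called in 6 or more libraries (34.8%, 16.4 to 57.3%), and introns 16.7% and 21.7%, with intervals that overlap in both.

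The 3′ UTR site of G3BP1, which encodes an RNA-binding protein that nucleates stress granules, was the only one called in all 14 libraries. Its level was 34.8%, 34.7% and 27.2% in hA3A-BE3 replicates 1, 2 and 3, behind 193 to 247 covering reads. It was 36.0% and 30.2% in PE3 replicates 2 and 3, 32.2%, 28.2% and 34.3% in Cas9, 36.1%, 36.4% and 39.2% in EGFP, and 31.3%, 36.1% and 35.5% in non-transfected cells. The EGFP libraries lay above all hA3A-BE3, PE3 and Cas9 libraries and overlapped with the non-transfected ones, and the other groups overlapped with each other. The mean was 32.2% ± 4.37 (SD, n = 3) with hA3A-BE3 and 34.1% ± 3.27 (SD, n = 11) without base editor, although the C follows a U. A limma fit on log2 odds of the level, over the 152 sites of any change called in all 14 libraries, gave a difference of -0.12 for hA3A-BE3 against the groups without base editor (95% interval -0.67 to 0.43, Benjamini-Hochberg adjusted p = 0.9997). PE3 against the 9 control libraries gave -0.08 (-0.74 to 0.58, adjusted p = 0.895), Cas9 against EGFP -0.36 (-1.05 to 0.33, adjusted p = 0.766) and EGFP against non-transfection 0.19 (-0.50 to 0.87, adjusted p = 0.871). The site was thus not called different in any of the 4 comparisons, in which 0%, 1.32%, 0.658% and 0.658% of the 152 sites passed, and its unadjusted p was over 0.05 in each, in limma as in a quasi-binomial model. The difference reversed to 0.05 without hA3A-BE3 replicate 3, and to 0.11 for PE3 without its replicate 3.

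Levels of the 23 sites called in 6 or more libraries covered a wide range. Mean levels went from 6.72% at MT-RNR2 to 98.8% at MEF2C-AS1, with a median of 31.0%. The SD between libraries was 0.530 to 1.44 times the SD that counting reads alone would give at that coverage (median 0.899 times over the 23 sites). This ratio uses called levels only, and a level under the limit of the lists does not enter.

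Coding sites in this class were in RBM27, ADCY3, UBXN11, CKAP4, MTBP, ZNF584, DCBLD2 and CC2D1A, and 4 of the 8 changed an amino acid. RBM27 encodes an RNA-binding protein, and its synonymous site (G350G) had 15.2% in PE3 replicate 3. Cas9 libraries had 41.2%, 31.6% and 17.8% there, EGFP 22.5%, 20% and 29.7%, and non-transfected cells 24.4%, 37.8% and 28.9%. It was called in 10 of the 11 libraries, in no hA3A-BE3 library and not in PE3 replicate 2. The P381S site of UBXN11, a protein with a UBX domain, was read at 95.3% ± 7.92 (SD, n = 8) from only 7 to 16 covering reads a library, and no hA3A-BE3 library called it. The T801M site of CC2D1A, a signalling scaffold and transcriptional repressor, had 44.8% in PE3 replicate 3. It had 47.0% in Cas9 replicate 3, 45.2% and 34.3% in EGFP replicates 1 and 3, and 44.8%, 35.0% and 27.8% in the non-transfected libraries, and again no hA3A-BE3 library called it. Together with AL391834.2, a non-coding antisense transcript (chr9:19375524, 55.5% ± 12.2, SD, n = 6), these were the 4 sites called in 6 or more libraries that hA3A-BE3 lacked. The windows of RBM27 and UBXN11 printed above are rich in C and G, and the part of local coverage in their absence was not tested.

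The other coding sites in this class were called in hA3A-BE3 too. ADCY3, an adenylyl cyclase, had a synonymous site (Y141Y) at 22.3% ± 5.34 (SD, n = 3) in hA3A-BE3, against 26.4% ± 8.68 (SD, n = 9) without base editor. At CKAP4, a membrane protein of the endoplasmic reticulum, the A342A site was at 37.1% ± 1.51 (SD, n = 3) in hA3A-BE3, against 35.7% ± 6.76 (SD, n = 8). DCBLD2 (I262I), a receptor-like membrane protein, was at 40.5% ± 19.7 (SD, n = 3) in hA3A-BE3, against 41.0% ± 7.84 (SD, n = 7), although its C follows a U. MTBP (P706L), which binds the p53 regulator MDM2, was at 33.7% ± 9.23 (SD, n = 3) in hA3A-BE3, against 31.0% ± 12.7 (SD, n = 8). The P142S site of the zinc finger gene ZNF584 was at 30.8% in hA3A-BE3 replicate 1 alone, against 30.6% ± 7.58 (SD, n = 8). In each of these genes the difference was smaller than the spread between libraries.

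Among untranslated regions, DAD1, part of the complex that attaches glycans to new proteins, held the only 5′ UTR site called in more than 1 library. Its level was 26.9%, 45.2% and 41.0% in hA3A-BE3, 55.6% and 44.9% in PE3, 47.4% and 41.5% in Cas9 replicates 1 and 3, 48.3%, 41.2% and 35.6% in EGFP and 42.6%, 41.6% and 50.7% in non-transfected cells. The lowest was an hA3A-BE3 library and the ranges overlapped. MAP3K21, a kinase of the MAP kinase cascade, had 8.33%, 21.6% and 16.1% in hA3A-BE3, against 12.2 to 32.4% (median 20%) in 10 of the 11 libraries. OTULIN, which cleaves linear ubiquitin chains, had 20.8%, 22.2% and 26.1% in hA3A-BE3, against 12.5 to 25% (median 20%) in 9 libraries. ZBTB40, a zinc finger gene, averaged 29.3% ± 7.29 (SD, n = 3) in hA3A-BE3, against 35.8% ± 5.68 (SD, n = 7). DNAJC21, a co-chaperone that acts in ribosome biogenesis, averaged 20.9% ± 2.58 (SD, n = 3) in hA3A-BE3, against 29.8% ± 10.1 (SD, n = 6). H2AFV, which encodes a histone variant, had a site in its 3′ UTR after a run of U, at 15.7% ± 5.35 (SD, n = 3) in hA3A-BE3, against 16.7% ± 7.09 (SD, n = 7). None of these sites was higher in hA3A-BE3 by more than the spread between libraries.

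Outside the sites of protein-coding exons, MEF2C-AS1 had the highest level that most libraries shared. This intronic site of a non-coding antisense transcript (chr5:88975589, plus strand) was at 100% in all 3 hA3A-BE3 libraries and both PE3 libraries. It was at 100%, 100% and 97.8% in Cas9, at 97.5%, 98.1% and 100% in EGFP, and at 97.6% and 96.4% in non-transfected replicates 2 and 3, with 28 to 93 reads a library. Nearly every read carried the change in each group. A broader limma fit took 278 sites called in at least 2 hA3A-BE3 and 8 other libraries, and also in at least 2 libraries of every group. Sites missing from either PE3 library were therefore left out, however many others called them. This fit tested 5 of the 289 sites (G3BP1, DAD1, ZNF544, MAP3K21 and MEF2C-AS1). Of these 0 passed in the 4 comparisons, where 0%, 1.44%, 0.36% and 0.36% of all 278 did. The smallest unadjusted p of hA3A-BE3 against the groups without base editor was that of MEF2C-AS1, 0.0151 (log2 odds difference 1.01, SE 0.38, limma adjusted p = 0.538). That scale stretches differences near 100%.

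The introns of ATAD3B, a gene for a mitochondrial membrane ATPase with close paralogues, held 4 sites, 3 of them called in 7 or more libraries. The sites at chr1:1477985 and chr1:1477987, only 2 bases apart, were each called in the same 13 libraries. At chr1:1477985 the level was 54.3%, 18.2% and 25% in hA3A-BE3, 41.3% in PE3 replicate 3, 30.8%, 22.2% and 38.4% in Cas9, 11.4%, 32.1% and 34.2% in EGFP and 31.4%, 39.4% and 27.6% in non-transfected cells. At chr1:1477987 it was 55.6%, 19.05% and 30.3% in hA3A-BE3, 43.1% in PE3 replicate 3, 30.8%, 19.2% and 41.2% in Cas9, 13.95%, 32.1% and 32.4% in EGFP and 34.2%, 37.5% and 24.1% in non-transfected cells. The pair moved together: within a library the levels differed by a median of 1.89 and at most 5.30 percentage points (n = 13). The site at chr1:1477852 averaged 39.6% ± 4.59 (SD, n = 2) in hA3A-BE3, against 46.1% ± 7.88 (SD, n = 7). The intronic site of the zinc finger gene ZNF544 (chr19:58256199) had 27.3% and 41.7% in hA3A-BE3 replicates 2 and 3, against 18.2 to 58.8% (median 38.5%) in all 11 libraries, from 12 to 22 reads each.

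The large mitochondrial ribosomal RNA, MT-RNR2, had the deepest site (position 2789 of the mitochondrial genome, plus strand) and the lowest mean level of the class. Its level was 7.602% and 5.22% in hA3A-BE3 replicates 2 and 3, behind 1447 and 2145 reads. It was 5.51%, 6.92% and 8.43% in Cas9, 6.36% in EGFP replicate 1, and 6.03%, 6.42% and 7.40% in non-transfected cells, behind 935 to 3711 reads. These levels lie just above the limit of the lists, so a library without the call may have been slightly lower. This was the only one of the 289 sites in the mitochondrial genome, and nuclear copies of that sequence make its mapping uncertain.

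**Figure D1:**
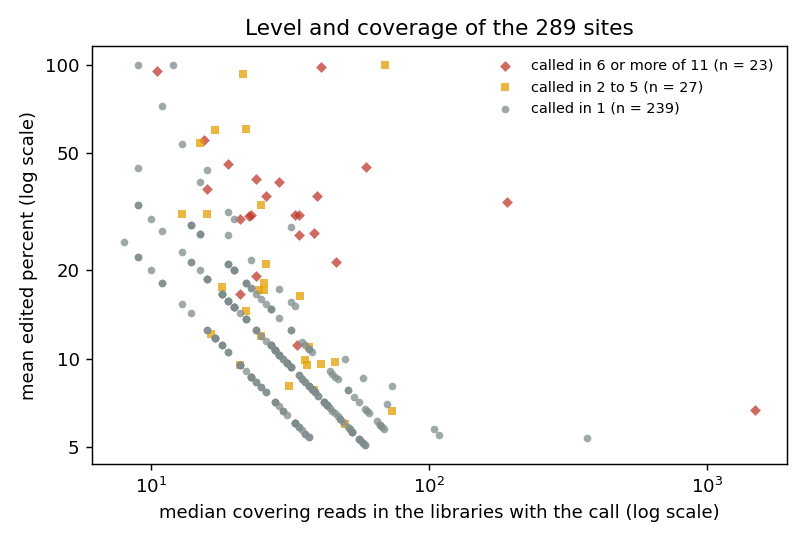
Mean edited percent over the libraries without base editor that called a site (vertical, log scale) against the median number of covering reads in them (horizontal, log scale) for the 289 C-to-U sites; red diamonds were called in 6 or more libraries, orange squares in 2 to 5 and grey circles in 1. The grey circles line up on curves of 2, 3 and 4 mutated reads and reach down to 5.08%, while most red diamonds lie above 20%.

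Sites called once had low levels. Their median level was 10.0% from a median of 28 covering reads, against 16.4% from 25.5 reads for sites called in 2 to 5 libraries and 31.0% from 29 reads for those in 6 or more. At most 3 mutated reads stood behind 169 of the 239 (70.7%), and exactly 2 behind 56. C-to-U sites called in hA3A-BE3 alone, which the rule left out, had a median level of 8.77% and a median of 47 reads, and 74.7% of them were in 1 of the 3 hA3A-BE3 libraries. The deepest singly called site was in ANKRD52, a regulatory subunit of a protein phosphatase, at 5.39% of 371 reads. The highest levels among sites called once were 100% in the pseudogenes H2AFVP1 (12 reads) and COPS8P2 (9 reads), whose parent genes are near copies, and 72.7% of 11 reads in PIK3CA, the catalytic subunit of a lipid kinase. An intronic site of the long non-coding RNA AC007405.1 (chr2:170751914, minus strand, with a pseudogene on the other strand) was at 100% of 81 reads in PE3 replicate 3 and 100% of 58 reads in non-transfected replicate 2, and in no other list.

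Coding changes were spread over synonymous (65 of 141), amino acid changing (63) and stop (13) changes. Every one of the 13 stop changes was called in 1 library, with 3 or 4 mutated reads, and none in hA3A-BE3. Of all 141 coding sites 124 were called in 1 library, and hA3A-BE3 called 2.09% of all sites called once. The counts for stop changes are thus near those of the other sites. The highest stop changes were Q573X in ELF4, an ETS transcription factor, at 27.3% of 11 reads, Q524X in MINDY2, a deubiquitinase, at 17.4% of 23 reads, and Q549X in EIF2D, a translation initiation factor, at 16.7% of 18 reads. The others were in EMC2, NCAPD2, LARP4B, FBN2, MLXIP, WNK1, EDA2R, PATZ1, NOC3L and GOLGA3, at 5.26 to 10.7%. Of the 17 coding sites called in 2 or more libraries, 8 changed an amino acid. Beyond the recurrent ones above, these were H1165Y in VPS8, a subunit of the CORVET tethering complex, at 21.2% in hA3A-BE3 replicate 3 against 20 to 41.2% in 5 libraries, H144Y in ZDHHC11 at 17.2%, H567Y in ZNF92 at 6.67% and P290L in ZNF621 at 6.01%.

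Some sites came in runs. Within 50 bases of another of the 289 on the same strand lay 32 sites (11.1%, 7.70 to 15.3%), in 12 runs. For C-to-U sites called in hA3A-BE3 alone, the share within 50 bases of another such site was 9.34% (964 of 10320). That set is far larger, which by itself raises the share, so the 2 shares do not compare how strongly the sites cluster. LINGO1, a co-receptor on neurons, had 5 intronic sites within 29 bases (chr15:77618613-77618641, minus strand) at mean levels of 5.50 to 16.4%, each in 1 to 3 of the 11 libraries. EGFP replicate 2 held 4 of them at 9.76 to 12.8%, and hA3A-BE3 replicate 3 called 3 of them at 8.33 to 19.1%. KDM6A, a histone demethylase, had 4 intronic sites spaced evenly 6 bases apart (chrX:45068829-45068847, plus strand), all of them called in Cas9 replicate 3 alone, at 13.6 to 30.0% of 19 to 22 reads. PATJ, a scaffold of tight junctions, had 3 intronic sites within 47 bases, all in PE3 replicate 2 at 11.8 to 26.3%, of which hA3A-BE3 replicate 1 also called the middle one. SCLY, selenocysteine lyase, had 3 sites in its 3′ UTR at spacings of 14 and 28 bases; the windows around the 3 are nearly the same, as printed here.
SCLY at chr2:238098598: cataggaccgCccacatagga
SCLY at chr2:238098612: cataggaccgCccacatggga
SCLY at chr2:238098640: catgggaccgCccacatggga
ENO3: tgtctctgccCtgtctctgcc
The ENO3 site (chr17:4955840, plus strand, intronic in the main transcript and read from another one) has the same 10 bases on both sides of the C, the only such window among those with sequence. This gene for an enolase was called in 3 libraries at 20% in Cas9 replicate 3, 19.2% in EGFP replicate 1 and 23.8% in non-transfected replicate 3.

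Changes of other kinds lay near some of the sites. An A-to-I site lay within 50 bases on the same strand at 44 of the 289 sites (15.2%, 11.3 to 19.9%) and at 124 of the 10320 sites called in hA3A-BE3 alone (1.20%, 1.00 to 1.43%). A site of a change other than C-to-U and A-to-I lay that close at 61 (21.1%, 16.5 to 26.3%), against 68 of the 10320 (0.659%, 0.512 to 0.835%). A LINGO1 position was also called as C-to-G. Introns and 3′ UTRs hold most A-to-I sites, and the part of region in this nearness was not tested.

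Gene families with many similar copies were represented much as among other changes. Their list held 25 of the 289 sites (8.65%), 23 of them in ZNF genes, against 8.21% of the sites of other changes, and ribosomal protein genes held 1 site, in an intron of RPS12, against 2.80%. Histone genes, with the pseudogene H2AFVP1 counted among them, held 3 sites (1.04%), against 0.454% of the sites of other changes. Polymorphic immune genes, mucins and structural small RNAs held 0, and they held 0 of the sites of other changes too. The genes with the most sites after LINGO1, ATAD3B and KDM6A were PATJ, SCLY, ZNF431 and FBN2 with 3 each.

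Each library without base editor held a similar number of sites, 43 and 44 in PE3, against 46.0 ± 3.20 (SD, n = 9, 42 to 53) in controls. The hA3A-BE3 libraries held 21, 20 and 30. The rule took every C-to-U call of the 11 libraries, but in hA3A-BE3 it left only calls shared with them. The count of an hA3A-BE3 library is thus not comparable with the others. Sites that no other of the 11 libraries called numbered 31 and 27 in PE3, against 16 to 25 in controls (20.1 ± 3.44, SD, n = 9). Sites called in 6 or more libraries numbered 10 and 15 in PE3, against 16 to 22 in controls. PE3 replicate 2 was the shallowest library, with 3.26 Gb and a median of 16 covering reads at its sites, while PE3 replicate 3 had 7.60 Gb and a median of 30.5. Among controls, Cas9 replicates 2 and 3 had 25 singly called sites each, at 5.44 and 10.6 Gb; the part of depth in these counts was not tested. With at least 20 covering reads the singly called sites numbered 9 and 27 in PE3, against 12 to 25 in controls. With a level of at least 10% they numbered 25 and 12, against 7 to 15, and with at least 5 mutated reads 4 and 2, against 0 to 6.

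No site was called in every library of 1 treatment and nowhere else. Sites called in 1 group without base editor and in none of the other 4 groups numbered 56 in PE3, 68 in Cas9, 56 in EGFP and 58 in non-transfected cells. Of the PE3 ones, 0 stood in both libraries, and none of the others stood in all 3 libraries of its group. In all, 238 of the 289 sites (82.4%) were called in 1 group only, against 50.9% of A-to-I, 75.8% of G-to-A, 73.8% of U-to-C and 79.0% of transversion sites of the same libraries. Sites called in every library of 1 group and nowhere else were few for these changes too, 32 of 8573 for A-to-I, 1 each for G-to-A and U-to-C and 0 for transversions. Those in 2 libraries of 1 group were ONECUT2, a transcription factor gene, at 61.5% and 47.1% in EGFP replicates 2 and 3, FEM1A at 11.8% and 12.5% in the same libraries, PHLPP1, a phosphatase that acts on AKT, at 42.9% and 78.3% in non-transfected replicates 2 and 3, and ZNF207 at 10.3% and 5.88% in non-transfected replicates 1 and 2.

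Where hA3A-BE3 called the same site, its mean level was higher at 14 of 33 sites and the median difference was -0.53 percentage points. Among sites with U before the C it was higher at 0 of 4, among those with another base at 5 of 17, and among those without known sequence at 9 of 12. MTAP, which salvages methionine, was called in all 3 hA3A-BE3 libraries, at 40.0%, 46.2% and 54.2%, against 68.8% in Cas9 replicate 1, 52.9% in EGFP replicate 2 and 58.8% in non-transfected replicate 1. AC025048.6, a transcribed pseudogene, had 70.0% and 82.1% in hA3A-BE3 replicates 1 and 3, against 81.8 to 100% in 4 libraries. MARCH7, a ubiquitin ligase gene with an intronic site, had 56.2% and 31.8% in hA3A-BE3 replicates 2 and 3, against 42.9% in PE3 replicate 2, 27.3% in Cas9 replicate 3 and 23.1% in EGFP replicate 3. These came from 7 to 28 reads each, and the ranges overlap in each of the 3 genes.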

How the data were processed

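The authors deposited 1 headerless list of called sites per library, with read counts per base, base fractions, the edited fraction and a depth signal per constant that was read here as mapped Gb. The submitters' processing notes name GRCh38, hg38 and BWA 0.7.17. The caller, its filters and the assignment of strands were not given in the sources used here. PE3 replicate 1 was not analysed here. Strand followed from the called base, and 18227 of 18227 exonic sites matched the reference base of GENCODE 29 transcripts. Regions came from the transcripts on that strand. Sequence was at hand for sites in an exon of any transcript. Mutated reads were taken as edited fraction times covering reads; the deposited count was higher at 3 calls in MT-RNR2.

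Levels at sites of any change called in all 14 libraries were compared with limma 3.58.1 (R 4.3.3) as log2((mutated + 0.5)/(other + 0.5)), 5 group means sharing 1 spread, Benjamini-Hochberg at 0.05. Tested on simulated data for hA3A-BE3 against the groups without base editor (152 sites), it called 20 of 20 sites changed by 2 log2 units, 8 of 20 changed by 1 and 0 of 112 unchanged. Shares carry exact (Clopper-Pearson) 95% intervals. Alternatives were other limits, scales, models and site sets, a block for replicate number and each library left out.

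Sites are named by rule: those in all 14 libraries, those most called but not in hA3A-BE3, the highest by region, the genes with most sites, amino acid changes in 2 or more libraries, list members and the deepest site; the other names belong to counts and were chosen after their values were seen. The sites, the rule and the gene lists were chosen with earlier results of these data known. A gene among the sites is not reported here.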

Additional observations from a re-analysis of the deposited data

How the results depend on the processing

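Direction and side of the threshold held for all 4 counts of the 289 sites passing, 0 in each of the 22 alternatives. Each fit tested only 1 to 5 of the 289, so these zeros cover few sites. The replicate numbers did not pair the libraries (same-number correlations of deviations -0.227 to 0.128, median 0.0395, over 26 pairs). With the replicate block, G3BP1 was the only one of the 289 sites tested, and it passed in no comparison. Of all 152 sites tested there, 0%, 1.32%, 0.658% and 0.658% passed in the 4 comparisons. The G3BP1 difference with the block was -0.12 for hA3A-BE3 against the groups without base editor. Leaving out each library gave G3BP1 differences of -0.21 to 0.05 for hA3A-BE3 against the groups without base editor, reversed to 0.05 (0.048) without hA3A-BE3 replicate 3, and of -0.27 to 0.11 for PE3 against controls, reversed to 0.11 without PE3 replicate 3; its adjusted p over all alternatives of the 4 comparisons was 0.396 to 1.

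With at least 20 covering reads 226 sites were left and no description moved beyond its spread (11.9% also called in hA3A-BE3, 52.7% coding, median level 9.52%). The other limits moved most descriptions, with fewer calls entering by construction. With a level of at least 10%, at least 5 mutated reads, or calls in at least 2 of the 11 libraries, the number of sites was 166, 59 and 50. The share also called in hA3A-BE3 was 16.3%, 40.7% and 56.0%, and by recurrence 2.09% (1 library) and 82.6% (6 or more), the last 2 chosen after seeing the data. The share called in 6 or more libraries was 12.7% at 10% and 32.2% at 5 mutated reads. Coding sequence held 37.3% at 5 mutated reads and 34.0% in at least 2 libraries, introns 27.1% and 28.0%. U stood before the C at 12.1% in at least 2 libraries. The median level was 16.7%, 30.0% and 26.7%. Leaving out each library gave 258 to 289 sites, 8.997 to 12.6% also called in hA3A-BE3, 7.52 to 8.46% in 6 or more libraries, 46.9 to 50% coding, 18.1 to 19.5% intronic, 21.9 to 24.0% in 3′ UTRs, 18.8 to 21.6% with U before the C and a median level of 10.3 to 11.1%. The share of 3′ UTRs stayed within its counting interval in all 20 alternatives.

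At most 3 mutated reads stand behind 169 of the 239 sites called once, which limits the precision of their levels, and only G3BP1 was tested over all 14 libraries.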
